A study of Homo sapiens with 2 samples.

Results

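The genes described here encode the protein part of the cytosolic ribosome, measured in SK-ES1, an established human line of Ewing sarcoma, a tumour driven by the fusion of EWSR1 with FLI1. Members were the genes whose probe annotation symbol is RPL or RPS followed by a number, with or without a final A or X, together with RPLP0, RPLP1, RPLP2 and RPSA, and with pseudogenes left out. Of 77 such symbols in RefSeq, 68 were named by at least 1 probe here, with 113 probes in all, and 67 passed detection (p under 0.01 against the array's negative controls) on either array. Those 67 genes, 42 of the large and 25 of the small subunit, are the members, out of 10195 detected genes of all kinds. All 67 were detected on both arrays. RPL10, which joins the large subunit late in its assembly, was the 1 named gene without a detected probe: its 2 probes had raw signals of 118.2 and 123.2 on the radiation-adapted array and of 135.6 and 115.9 on the wild type array. The other symbols were not analysed here.

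Total RNA of radiation-adapted SK-ES1 cells, labelled SK-4Gy, and of wild type SK-ES1 cells, labelled SK-WT, was hybridised to Illumina expression BeadChips, with 1 array for each. The labels do not say how the 4 Gy were given, nor whether the adapted cells are a clone or a pool. Each group is 1 array, so no difference has a replicate check and none was tested. In such bulk RNA, fewer cells expressing a gene and less RNA per cell cannot be told apart. A log2 ratio below is always radiation-adapted minus wild type, from background-corrected and quantile-normalized signals, and a gene is read from its brightest detected probe. The label was checked against markers: 7 of 8 Ewing sarcoma markers were detected, the eighth having no probe named, beside 6 of 8 fibroblast, 3 of 7 leukocyte, 1 of 5 epithelial and 0 of 4 endothelial markers. Across detected genes the median log2 ratio was -0.0374.

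The ribosome reads mRNA on its small subunit and joins amino acids on its large subunit, and each particle carries a single copy of most of its proteins. Growing cells therefore make these mRNAs in large and roughly matched amounts. Most of them start with a C followed by a run of pyrimidines, the 5′ terminal oligopyrimidine (TOP) sequence, through which the kinase mTOR and the protein LARP1 control their translation and stability. Transcript starts of members at both ends of the range of log2 ratios are printed as examples of this feature. Each window holds 18 bases before and 12 bases from a RefSeq transcript start in GRCh38.p14, 5′ to 3′ on the gene's strand, and capitals mark the pyrimidine run at the start, as far as the window reaches. The first 7 are from genes with a log2 ratio of -0.26 or lower, and the next 4 from genes at 0.11 or higher. RPL9 and RPS28, also higher, are shown because no run begins at their listed start, and NAP1L1 is a TOP gene outside the ribosome.
RPL22 (chr1:6199584-6199613, minus strand): gcgtagttcgctcacctcCCTTTCTaactc
RPL13 (chr16:89560664-89560693, plus strand): gcattgcggggccgcttcCTTTCCgctcgg
RPL13A (chr19:49487590-49487619, plus strand): ctgcgacaaaacctcctcCTTTTCCaagcg
RPS9 (chr19:54200840-54200869, plus strand): gccgtggcgcttccgcgcCTCTTTCTCagt
RPS23 (chr5:82278343-82278372, minus strand): ccttcctgcggtgcttctCTCTTTCgctca
RPS21 (chr20:62387085-62387114, plus strand): ccgggtgactagctgcttCCTTTCTCTCTC
RPS3 (chr11:75399500-75399529, plus strand): tccgcccgcgagccacttCCTTTCCTTTCa
RPL28 (chr19:55385914-55385943, plus strand): gcctcgcccctcgccttcCTCTTTCCgtct
RPL26 (chr17:8383182-8383211, minus strand): cggaagcagcgtgtagttCTCTTCCCTTTT
RPL37A (chr2:216498826-216498855, plus strand): tgcgcaccgcgtctcttcCTTTCTgggctc
RPL35 (chr9:124861946-124861975, minus strand): gtcagccccgcctacttcCTCTTTCCCTCg
RPL9 (chr4:39458911-39458940, minus strand): caagtacgtaatgacgacagacgttctttc
RPS28 (chr19:8321478-8321507, plus strand): ctctccccgaagcacgtgactcctctccgc
NAP1L1 (chr12:76084674-76084703, minus strand): agcggcgggctcttgggtCTTTTTTagcgc

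A gene was counted if any of its listed starts had a C followed by at least 4 bases that are each C or T. This held for 42 of the 57 members with a window (73.7%), compared with 988 of 15843 protein-coding genes with a window (6.24%). The search covered the transcript strand at the start itself, since the sequence is defined by its place there. Members with such a start had a median log2 ratio of -0.0396 and the other 15 had one of -0.0216. In the printed windows, picked for the longest run of each gene, genes at both ends of the range have a listed start with the run. A listed start can differ from the start used in these cells, and a missing run says nothing about it.

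As a set, the ribosomal protein mRNAs had a median close to that of all detected genes. The median log2 ratio of the 67 members was -0.0395, beside -0.0374 for all detected genes, and the members lay between -0.77 and 0.21. By measured ratio, 0 members reached 1.5-fold higher in radiation-adapted cells, a size that 12.5% of all detected genes reached. In the lower direction 1 member, RPL22, reached 1.5-fold, beside 9.61% of all detected genes. A 2-fold difference was reached by 0 members either way, and by 4.03% (higher) and 2.09% (lower) of all detected genes. Of the 67 members, 26 (38.8%) were above 0, compared with 46.6% of all detected genes. Among genes with a mean log2 level of at least 12, the share above 0 was 39.3% of 56 members and 39.2% of 423 other genes.

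The sign of that median followed the scaling of the arrays. By raw signal 47 members were brighter on the radiation-adapted array and 20 on the wild type array. Of all detected genes, 54.2% were brighter on the radiation-adapted array. Without normalization between the arrays the median of members was 0.045 and that of all detected genes 0.032, and 1526 detected genes then reached 1.5-fold higher and 736 lower, beside 1274 and 980 after normalization. In both settings, the median of members lay within 0.013 of the median of all detected genes. Single members should be read in the same way: 20 were above 0 and 17 below 0 in every setting in which they were read, while the other 30 were at or across 0 in at least 1. The setting limited to probes under 20000 could not read 19 members, and 15 of the 20 and 14 of the 17 were read in all settings. For a member with 1 detected probe, such as RPL22, the settings that change the probe or the detection limit returned the same value by construction. Keeping a sign in those settings is therefore no check for such a member. RPS27 counts among the 20, although its second brightest probe, which no setting read, was at -0.0405.

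**Figure D1:**
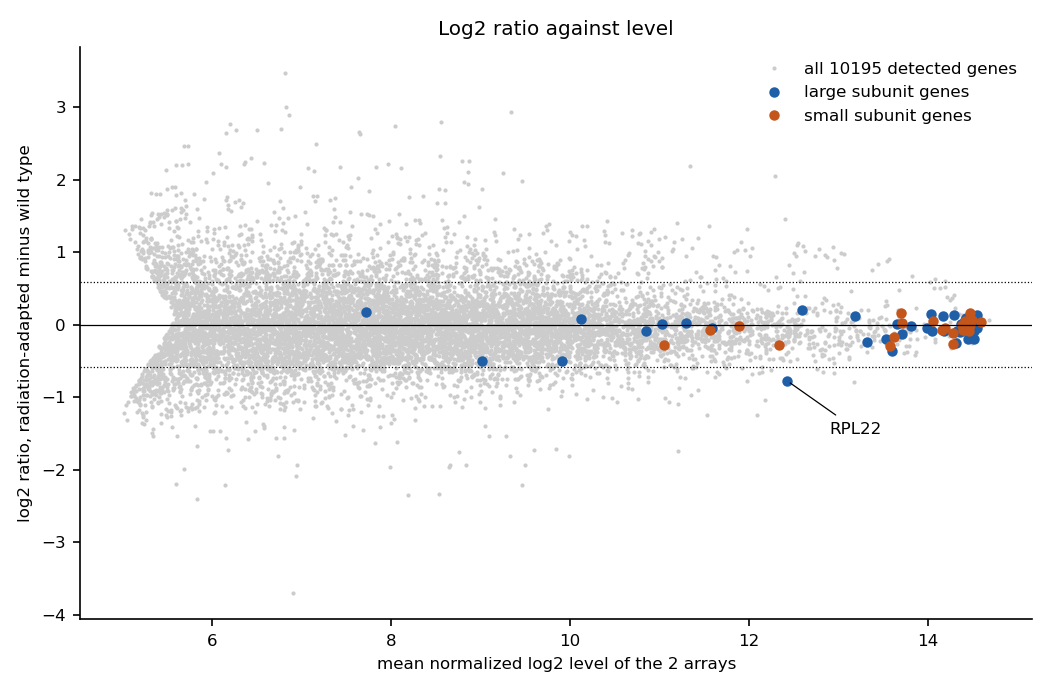
Log2 ratio (radiation-adapted minus wild type) against the mean normalized log2 level of both arrays for all 10195 detected genes (grey), large subunit genes (blue) and small subunit genes (orange). Dotted lines mark 1.5-fold, and RPL22, at -0.77, is the 1 member beyond them.

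Read from their brightest probes, the members differed little among themselves. The SD of their log2 ratios was 0.171, compared with 0.530 over all detected genes, and 0.148 without RPL22. Read from probes under 20000, the SD was 0.266 over 48 members and 0.532 over other genes. Most members are bright, and bright genes vary less on the array, so the comparison was also made above a mean log2 level of 12. There, 56 members had an SD of 0.161 and 423 other genes one of 0.365. At 1.5-fold, 0 of the 56 members and 7.57% of the other genes were higher, and 1.79% of the members and 2.36% of the other genes were lower. Signals near the top of the scanner's range can understate a ratio. The highest signals of any probe were 27995.1 on the radiation-adapted array and 27430.5 on the wild type array, and 34 members were read from a probe of 20000 or more on at least 1 array. These 34 had an SD of 0.106, and 36 other genes as bright had one of 0.256. The median was -0.021 for these 34, with 41.2% above 0, and 0.068 for the 36 others, with 72.2% above 0. Among genes above the level of 12 but under 20000, 22 members had an SD of 0.218 and 387 other genes one of 0.371. Their medians were -0.058 for members and -0.081 for other genes. The part of signal compression in these spreads was not tested.

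The subunits could hardly be told apart by their medians. The 42 large subunit genes had a median log2 ratio of -0.0396, with 17 above 0, and the 25 small subunit genes one of -0.0324, with 9 above 0. The difference of the medians, large minus small, was -0.0071. The spread was wider among large subunit genes, with an SD of 0.194 and a range of -0.77 to 0.21. Small subunit genes had an SD of 0.127 and a range of -0.29 to 0.16. When genes were read from their brightest probe under 20000, which 48 members had, the difference of the medians turned to 0.046.

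**Figure D2:**
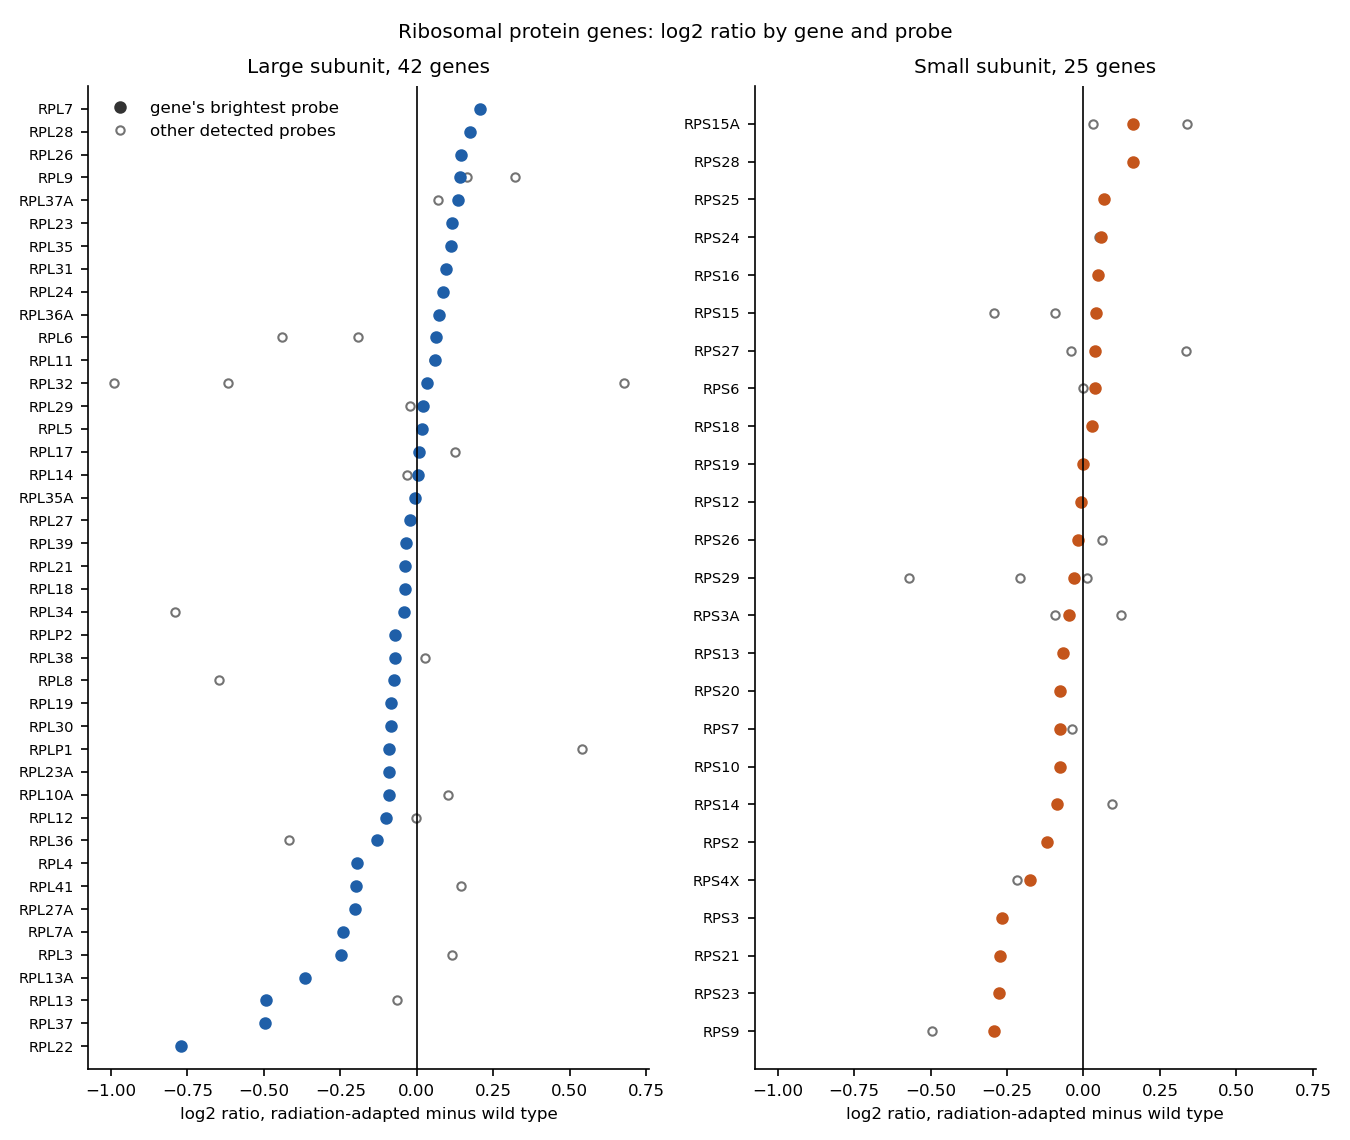
Log2 ratio (radiation-adapted minus wild type) of each large subunit gene (left, 42 genes) and small subunit gene (right, 25 genes), ordered by value. Filled points are the gene's brightest probe and open points its other detected probes, which for RPL32 run from -0.99 to 0.68.

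Among members with lower values, RPL22 stood farthest from the rest. RPL22 is an RNA-binding protein on the outside of the large subunit, near the exit tunnel, and its paralog RPL22L1 can take its place. Its raw signal was 4402.2 in radiation-adapted cells, against 6989.2 in wild type cells, a log2 ratio of -0.77 (1.71-fold lower). It has 1 detected probe, so no second probe checks this value, and its log2 ratio lay between -0.78 and -0.68 in every setting. RPL22L1 did not pass detection at p under 0.01 on either array, with raw signals of 152.8 in radiation-adapted cells and 151.4 in wild type cells. Its detection p was 0.0208 in radiation-adapted cells and 0.0169 in wild type cells, which passes the looser limit of 0.05.

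RPL37, a zinc-binding protein of the large subunit, followed at a log2 ratio of -0.50, with raw signals of 554.8 in radiation-adapted cells and 718.5 in wild type cells. A further RPL37 probe, not detected at p under 0.01, went the other way at 0.34. It had 151.7 in radiation-adapted cells and 139.4 in wild type cells. RPL13, a large subunit protein, had 931.2 in radiation-adapted cells and 1240.6 in wild type cells, a log2 ratio of -0.49, but its other detected probe was at -0.066. For both genes the probe in use was dim next to those of most members. RPL13A, which besides its place in the large subunit is known to silence inflammatory mRNAs when released, had 11345.0 in radiation-adapted cells and 13842.9 in wild type cells, a log2 ratio of -0.36 from 1 detected probe.

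The lowest small subunit genes were RPS9, RPS23, RPS21 and RPS3. RPS9, a protein that helps start small subunit assembly, had 11460.5 in radiation-adapted cells and 13312.1 in wild type cells, a log2 ratio of -0.29, and its other probe was lower still, at -0.49. RPS23, which reaches into the decoding centre, had 2080.6 in radiation-adapted cells and 2386.9 in wild type cells, a log2 ratio of -0.28. RPS21 had 4921.1 in radiation-adapted cells and 5693.7 in wild type cells, a log2 ratio of -0.27. RPS3, which lines the mRNA entry channel and is also known as a DNA repair endonuclease, had 18951.4 in radiation-adapted cells and 21213.6 in wild type cells, a log2 ratio of -0.26. None of these genes reached 1.5-fold. RPS9 is the 1 of the 4 with a second detected probe, and that probe lay on the same side of 0.

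The highest members were closer to 0 than the lowest. RPL7, a large subunit protein, had 6967.4 in radiation-adapted cells and 5788.7 in wild type cells, a log2 ratio of 0.21. RPL28, read from a dim probe, had 343.5 in radiation-adapted cells and 303.5 in wild type cells, a log2 ratio of 0.17. RPS15A had 24744.8 in radiation-adapted cells and 20954.5 in wild type cells, a log2 ratio of 0.16, and its other 2 probes were at 0.031 and 0.34. All 3 genes were thus at most 1.15-fold higher by the probe in use.

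RPS28, a protein of the small subunit head, had 14496.2 in radiation-adapted cells and 12446.4 in wild type cells, a log2 ratio of 0.16. RPL26, known to bind the mRNA of p53 and raise its translation after DNA damage, had 18339.0 in radiation-adapted cells and 15764.4 in wild type cells, a log2 ratio of 0.14. RPL9 had 26012.8 in radiation-adapted cells and 22261.9 in wild type cells, a log2 ratio of 0.14, with its other 2 probes at 0.32 and 0.16. It was the higher member best backed by further probes. RPL37A had 21668.3 in radiation-adapted cells and 18614.2 in wild type cells, a log2 ratio of 0.13. RPL23 had 10039.4 in radiation-adapted cells and 8853.1 in wild type cells, a log2 ratio of 0.12.

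**Figure D3:**
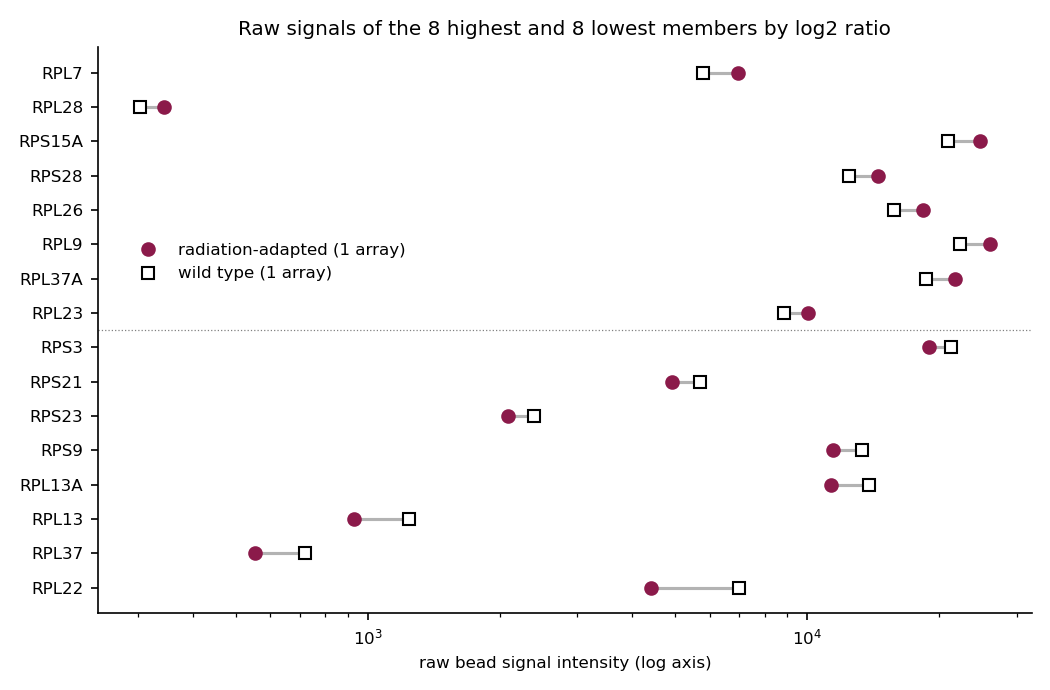
Raw bead signal intensity (log axis) on the radiation-adapted array (filled circles) and the wild type array (open squares) for the 8 members with the highest and the 8 with the lowest log2 ratio, separated by the dotted line. RPL22 has the widest gap, 4402.2 against 6989.2.

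By place in the ribosome, most groups had medians near 0. In the stalk, which recruits the factors that drive elongation, RPL12, RPLP1 and RPLP2 had log2 ratios of -0.10, -0.091 and -0.071, and 2 of the 3 were above 0 without normalization between arrays. RPL5 and RPL11 carry the 5S ribosomal RNA into the large subunit and, when free, bind MDM2 and stabilise p53. They were at 0.016 and 0.061, and stayed above 0 in every setting in which they were read, RPL11 having no probe under 20000. With 1 detected probe, RPL5 could not change in the settings that choose another probe. RPL5 had 13434.1 in radiation-adapted cells and 12642.1 in wild type cells, and RPL11 had 23938.5 in radiation-adapted cells and 21654.2 in wild type cells.

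The 9 genes around the exit tunnel, through which the new chain leaves, had a median of -0.034, with 4 above 0: RPL26, RPL35, RPL31 and RPL17. The head of the small subunit had 11 detected genes with a median of -0.0008 and 5 above 0, and they ran from -0.26 (RPS3) to 0.16 (RPS28). Both medians turned above 0 under median scaling, at 0.0073 for the tunnel genes and 0.028 for the head genes. At the mRNA entry, all 3 genes, RPS2 (-0.12), RPS3 and RPS23, were below 0. They stayed below 0 in every setting in which they were read, although RPS2 and RPS3 have no reading under 20000. With 3 genes of 1 probe each, nothing particular to the entry channel can be drawn from this.

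A list of 9 genes mutated in Diamond-Blackfan anaemia, an inherited failure of red cell production, held 8 detected genes. It is not every gene known in the disease, and RPL26 and RPS28, higher members described above, are outside it. The 8, RPS7, RPS10, RPS19, RPS24, RPS26, RPL5, RPL11 and RPL35A, lay between -0.078 and 0.061. The median was -0.0035, with 3 above 0, and it turned to 0.026, with 5 above 0, under median scaling. RPS19, the gene most often mutated in the disease, had 21934.7 in radiation-adapted cells and 20809.3 in wild type cells, a log2 ratio of -0.0008. RPS6, the small subunit protein phosphorylated by S6 kinases, had 25753.1 in radiation-adapted cells and 23819.1 in wild type cells, a log2 ratio of 0.038, with its other probe at 0. These values are mRNA signals and hold no information on phosphorylation.

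A second probe on the same arrays is the nearest thing to a repeat that these data hold. Of the members, 37 had 1 detected probe and 30 had more: 20 had 2, 8 had 3 and 2 had 4. Between the 2 brightest probes of a member the log2 ratios differed with an SD of 0.271, compared with 0.466 over the 2567 detected genes with at least 2 detected probes. The order turned with probes under 20000, where the SD was 0.520 over 16 members and 0.467 over 2519 other genes. With all probes, the difference reached 0.5 in 3 of the 30 members (10%), compared with 21.7% of all such genes. In small subunit genes the SD of the difference was 0.110 over 12 genes and in large subunit genes 0.340 over 18. All 3 of the large differences were in large subunit genes.

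In each of those 3 genes a brighter probe near 0 was paired with a much dimmer probe far from it. RPL34 had 3193.0 in radiation-adapted cells and 3164.5 in wild type cells on its brighter probe (log2 ratio -0.041). Its dimmer probe had 728.3 in radiation-adapted cells and 1150.0 in wild type cells (-0.79). The brighter and dimmer probes of RPL34 are annotated to different transcripts, and the part of this in the difference was not tested. RPL8 had 21690.1 in radiation-adapted cells and 21672.5 in wild type cells on its brighter probe (-0.076), whereas its dimmer probe had 529.1 in radiation-adapted cells and 744.1 in wild type cells (-0.65).

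RPL32 had 22888.7 in radiation-adapted cells and 21172.0 in wild type cells on its brightest probe (0.033). Its other 3 probes all read under 300 and went both ways, at 0.68, -0.62 and -0.99. The probe at -0.99 is annotated to a different transcript from the rest. RPLP1 and RPS29 showed the same form among their further probes, with 0.54 for the dimmest probe of RPLP1 and -0.57 for that of RPS29, while the other probes of both genes lay between -0.21 and 0.012. Over member probes as a whole, 43 with a signal of 20000 or more on an array had an SD of 0.103 in log2 ratio, and 30 with signals under 5000 on both arrays had one of 0.370.

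All detected probes lay on 1 side of 0 for 14 of 30 members (46.7%), compared with 66.8% of all genes with at least 2 detected probes, and the median size of a log2 ratio was 0.083 in members and 0.295 in all detected genes. All detected probes were above 0 for 6 members, RPL9, RPL11, RPL17, RPL37A, RPS15A and RPS24. They were below 0 for 8, RPL8, RPL12, RPL13, RPL34, RPL36, RPS4X, RPS7 and RPS9. RPS4X, encoded on the X chromosome, had 12142.4 in radiation-adapted cells and 13234.1 in wild type cells, a log2 ratio of -0.17, and its other probe was at -0.22.

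RPL39L stood out among genes related to the ribosomal proteins. Of 9 fusion genes and paralogs listed, 5 were detected. FAU, which encodes RPS30 fused to a ubiquitin-like protein, was at -0.062, RPL36AL at 0.031 and RPL26L1 at -0.15. RPL39L, a paralog of RPL39 best known from male germ cells, had 2733.0 in radiation-adapted cells and 1475.9 in wild type cells, a log2 ratio of 0.90 (1.86-fold higher), and its other probe was at 0.51. RPL39 itself had 23100.9 in radiation-adapted cells and 22162.8 in wild type cells, a log2 ratio of -0.034. RPS27L, a p53 target related to RPS27, had 3680.0 in radiation-adapted cells and 2952.5 in wild type cells, a log2 ratio of 0.28, and RPS27 was at 0.038. RPL10L and RPL3L were not detected.

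Of 17 mRNAs outside the ribosome listed as TOP mRNAs, most detected ones were below 0. The run at the start was found for 9 of the 11 with a window, and not for EEF1G and VIM. Of the 17, 15 were detected, with a median log2 ratio of -0.21 and 3 (20%) above 0 (EEF1B2, EEF2 and EEF1A1). Above 0 were 46.6% of all detected genes, and 39.2% of 423 non-member genes with a mean log2 level of at least 12. The other 3 probes of EEF1B2 and 2 of the 4 probes of EEF1A1 were below 0, and by the median of probes 1 gene was above 0. The median ranged from -0.24 to -0.11 over the settings, below 0 in each. NAP1L1, a histone chaperone, had 4109.1 in radiation-adapted cells and 6046.5 in wild type cells, a log2 ratio of -0.62 (1.53-fold lower), with other probes at -0.66 and -0.059. The initiation factor genes EIF3H (-0.50), EIF3E (-0.42), EIF3F (-0.21) and EIF3L (-0.17) were all below 0. EEF1G was at -0.37 and PABPC1 at -0.27, while EEF1A1, the most abundant elongation factor, was at 0.063. At 1.5-fold, 1 of the 15 (6.67%) was lower and 0 higher, beside 9.61% and 12.5% of all detected genes. Whether this list differs from the ribosomal protein genes was not tested.

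Among 13 genes that control transcription or translation of these mRNAs, 12 were detected, with a median of -0.10. Above 0 were 4 of the 12 (33.3%), beside 46.6% of all detected genes. At 1.5-fold, 2 of the 12 (EIF4EBP1 and RPS6KB1) were lower and 0 higher, beside 9.61% and 12.5% of all detected genes. EIF4EBP1, which encodes an inhibitor of cap-dependent translation acting below mTOR, had 355.5 in radiation-adapted cells and 576.3 in wild type cells, a log2 ratio of -0.997 (1.996-fold lower). This value comes from 1 dim probe, and without background correction it was -0.74. RPS6KB1, the S6 kinase gene, had 522.1 in radiation-adapted cells and 780.3 in wild type cells, a log2 ratio of -0.75 (1.68-fold lower), and RPS6KB2 was at -0.36. TSC1, a brake on mTOR, had 597.5 in radiation-adapted cells and 433.6 in wild type cells, a log2 ratio of 0.54, with further probes at 0.30 and -0.97. MTOR (-0.075), RHEB (0.076) and MYC (-0.035), a transcriptional activator of ribosomal protein genes, were near 0. LARP1 was not detected by its probe.

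**Figure D4:**
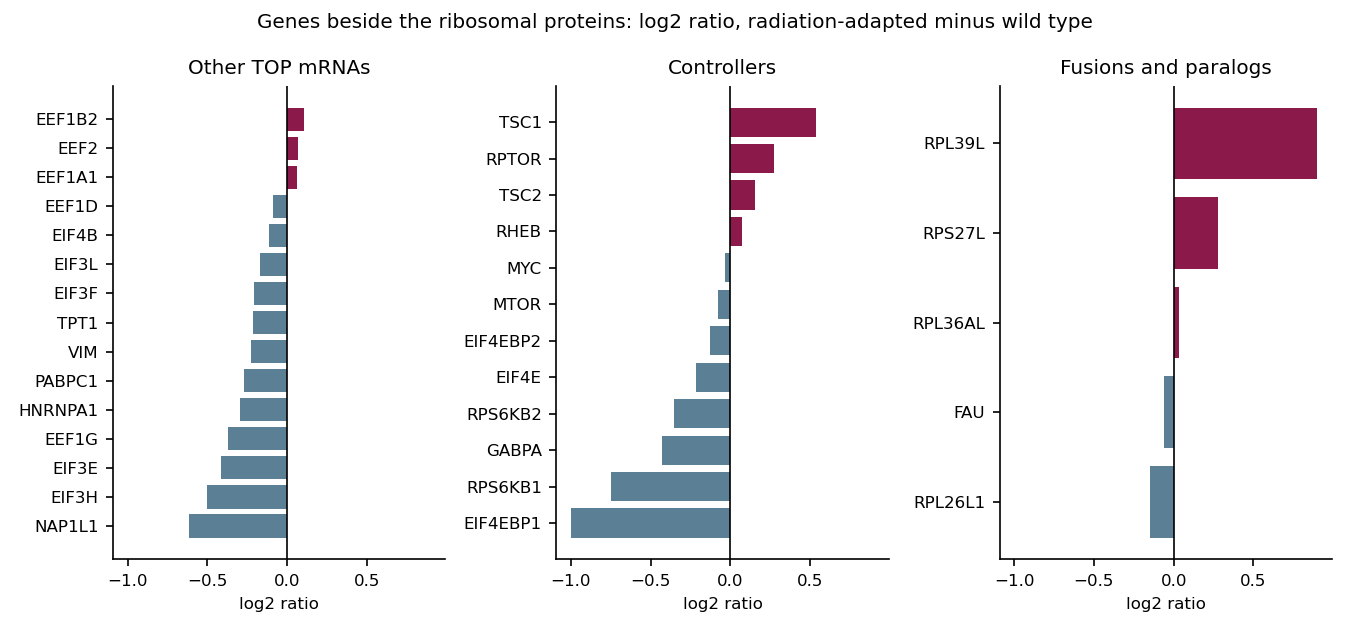
Log2 ratio (radiation-adapted minus wild type, 1 array each) of detected genes in 3 lists: other TOP mRNAs, genes that control these mRNAs, and fusion genes and paralogs of ribosomal proteins. Bars start at 0. NAP1L1 (-0.62), EIF4EBP1 (-0.997) and RPL39L (0.90) lie farthest out in their lists.

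Many ribosomal protein genes carry small nucleolar RNAs (snoRNAs), guides for ribosomal RNA modification, in their introns. Host mRNA and snoRNA are cut from the same primary transcript. RefSeq places 51 snoRNA genes inside members. Of 48 with a probe named, 27, from 17 host genes, were detected. Of these, 11 passed detection on the radiation-adapted array alone, so their direction was set by the filter. The 16 detected on both arrays, from 12 hosts, had a median log2 ratio of 0.46, whereas the median of their hosts was -0.16. Of the 16, 14 were above 0 and 14 above their host, beside 46.9% above 0 among all genes detected on both arrays. The exceptions were SNORA64 (-0.37) and SNORA10 (-0.24), both in RPS2 (-0.12).

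The snoRNA signals were low, from 166.5 to 595.6 on the radiation-adapted array and from 126.2 to 485.7 on the wild type array. Whether these probes read the cut snoRNA or the uncut primary transcript was not tested. Over all 27 the median log2 ratio was 0.71 with background correction and 0.28 without it, a description that includes the 11 detected on 1 array. SNORD36C had 387.0 in radiation-adapted cells and 231.2 in wild type cells, a log2 ratio of 1.10, beside -0.24 for its host RPL7A. SNORA3B had 221.7 in radiation-adapted cells and 159.6 in wild type cells, a log2 ratio of 1.08, beside -0.20 for RPL27A. SNORA66, inside RPL5 (0.016), had 244.0 in radiation-adapted cells and 152.1 in wild type cells, where it was not detected, and its log2 ratio without background correction was 0.63.

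Outside members, the 49 snoRNA genes detected on both arrays had a median log2 ratio of 0.37, with 41 above 0.

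**Figure D5:**
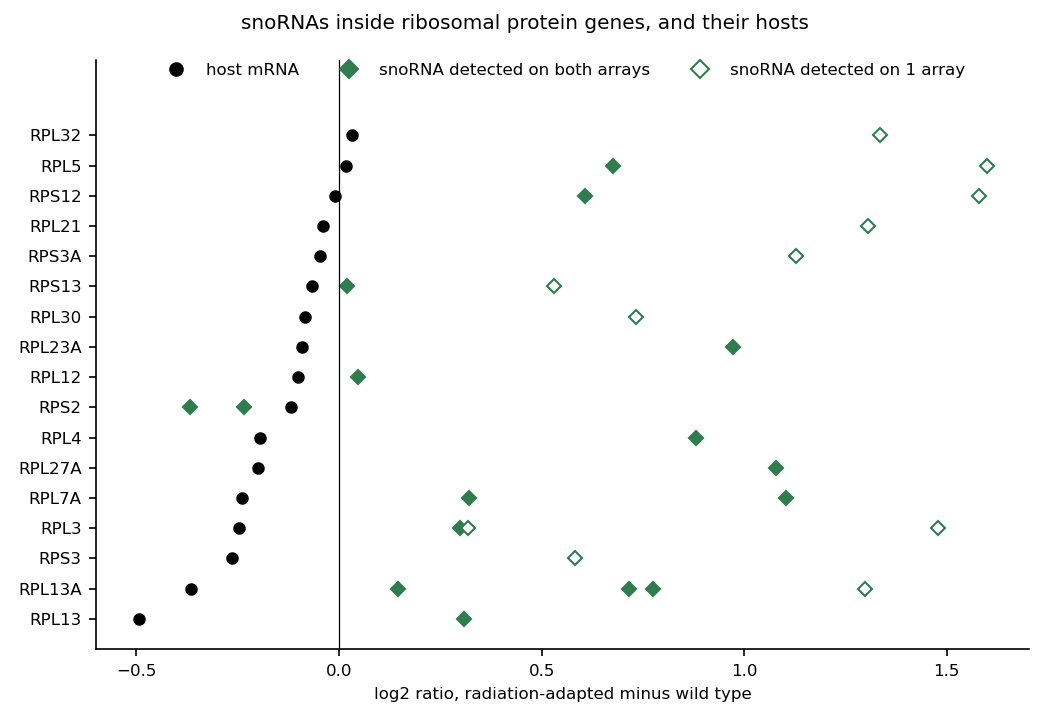
Log2 ratio (radiation-adapted minus wild type) of 27 detected snoRNAs (green diamonds, open where 1 array detected them) and of the 17 ribosomal protein genes that contain them (black circles). Hosts lie between -0.49 and 0.033, and 14 of the 16 filled diamonds lie to the right of their host.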

How the data were processed

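The deposited table, named as not normalized, holds a linear signal intensity averaged over the beads of each probe, per the file headers. Beside it stands a detection p-value for every intensity, per the file headers. RNA was extracted with Trizol and labelled with an Illumina TotalPrep kit, per the labels' protocols. Scanner, software and build were not given in the sources used here. Also, the authors deposited processed intensity values of unstated making, equal in distribution between arrays and used as an alternative.

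Normalization used neqc of limma 3.58.1 under R 4.3.3, that is, normexp background estimated through the detection p-values, an offset of 16, quantiles and log2. Summaries used Python 3.11.15 with pandas 2.3.3 and SciPy 1.17.1, and matplotlib 3.10.9 drew the figures. The offset makes folds of dim genes smaller. Of 47323 probes, 30113 had 1 symbol in the platform annotation, 8 several and 17202 none, and symbols were updated through a RefSeq table of GRCh38.p14. A gene was read from its brightest probe detected at p under 0.01 on at least 1 array. Signals of different probes depend on their binding, so levels were not compared between genes. On the radiation-adapted array 15399 probes were detected, and 15887 on the wild type array. With 1 array per group there was no test, and the number of arrays limits the precision. The steps were tested on simulated data with no upper limit on the signal, so that check did not cover compression of bright signals.

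The members and lists were chosen with earlier results of these data known. Named were the 8 highest and 8 lowest members, members whose brightest 2 probes differed by 0.5 or more, the structural groups and the lists. SNORD36C, SNORA3B, SNORA66, SNORA64, SNORA10, RPS6 and RPS4X were chosen after their values were seen. Promoter windows came from RefSeq. Probes of ribosomal protein genes can also bind transcripts of their many near-identical pseudogenes, so each value may hold some of that signal.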

Additional observations from a re-analysis of the deposited data

How the results depend on the processing

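The settings tried were no background correction, median scaling, an offset of 50, the deposited processed values, stricter and looser detection, and other probes for a gene. Leaving out normalization between arrays and reading genes only from probes under 20000 were added after seeing the data. The median of members became -0.0081 under median scaling and 0.0446 without normalization between arrays. In the latter setting the large and small subunit medians were 0.0325 and 0.053. There, 47 of the 67 members were above 0, beside 53.3% of all detected genes. Read from the dimmest detected probe, 4 of the 67 members were at least 1.5-fold lower, beside 1163 of all 10195 detected genes. With probes under 20000, which 48 members had, 1 member was at least 1.5-fold higher and 2 lower. Over all 10161 genes so read, 1272 were higher and 984 lower. The large minus small difference was 0.0461 and the SD over members 0.2664. Their 2 brightest probes then differed with an SD of 0.5201 over 16 members, of which 9 had all probes on 1 side of 0. Fewer and dimmer probes enter there by construction. RPL22 was the 1 member at least 1.5-fold lower under every other setting. Over all detected genes, the counts at 1.5-fold were 482 higher and 238 lower without background correction, and 846 higher and 528 lower with an offset of 50. Single members moved by over 0.19 in 14 of 67 cases with the dimmest probe, in 5 with the median of probes and in 8 of 48 with probes under 20000, and in none under the other settings. The 37 members with 1 detected probe could not move in the settings that choose another probe. No paired analysis was possible because each group held 1 array, and for the same reason no array could be left out.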

Other observations

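Mitochondrial ribosomal protein genes, which build the separate ribosome of mitochondria, had a median log2 ratio of -0.087 over 74 detected genes. They spread more widely than the cytosolic set, with an SD of 0.300, beside 0.530 over all detected genes. At 1.5-fold, 6 of the 74 (8.11%) were lower and 0 higher, beside 9.61% and 12.5% of all detected genes. The difference between both sets was not tested.

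Annotated pseudogenes of cytosolic ribosomal protein genes had 31 probes, of which 18, from 14 pseudogenes, were detected. The log2 ratios of these 18 probes ran from -0.28 to 0.28 with a median of 0.064. Of the 18, 13 were above 0, beside 46.6% of all detected genes by their brightest probes. The 2 probes of RPL13AP5, picked after its values were seen, had log2 ratios of 0.080 and 0.011, the first with 24829.4 in radiation-adapted cells and 22100.9 in wild type cells, while its parent RPL13A was at -0.36. The share of parent and copy in either signal was not tested.

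Members are scattered over 21 chromosomes. Those on chromosome 17 (6 genes) had a median of -0.047, beside -0.12 for all detected genes there, and those on chromosome 19 (9 genes) one of -0.0008, beside -0.0021. On chromosome 3 the median was 0.019 over 5 members, beside 0.058 for all detected genes, and on chromosome 11 it was -0.071 over 5 members, beside -0.044. Across the 67 members, all on the same 2 arrays, log2 ratio and mean log2 level had a Spearman correlation of 0.216, given as a description.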
